A study of Homo sapiens with 10 samples.

Results

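The genes described here are 36 members of the chaperone and stress response machinery of the endoplasmic reticulum (ER), the compartment in which secreted and membrane proteins are folded. They were taken by symbol from a list that was chosen with earlier results of these data known. Each deposited file held 25548 distinct symbols, and all 36 members were listed in every library. RNA sequencing had been done on lines made from U2OS, a cell line established from a human osteosarcoma. The line given the control CRISPR construct carries the label p53 WT, and the other CRISPR line the label p53 KO. The design text describes 1 line of each kind obtained after clone identification, so a difference between the lines cannot be told apart from a difference between clones. It also names SET as the CRISPR target while describing loss of p53, so the groups were taken from the sample titles, and WT-labelled and KO-labelled refer to those titles. Both lines had received, for 96 h before RNA extraction, either control siRNA or siRNA targeting the histone chaperone SET, which binds p53. The 4 groups were WT-labelled cells with control siRNA (n = 3), WT-labelled cells with SET siRNA (n = 3), KO-labelled cells with control siRNA (n = 2) and KO-labelled cells with SET siRNA (n = 2). Replicates are labelled biological, but how their cultures were separated is not said, so p-values here reflect the spread between libraries and nothing wider.

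Proteins entering the ER are held in solution by the Hsp70 chaperone HSPA5 and its partners, receive glycans that the lectins calnexin and calreticulin bind, and gain disulfide bonds through protein disulfide isomerases. When unfolded protein accumulates, the sensors IRE1 (ERN1), PERK (EIF2AK3) and ATF6 start the unfolded protein response. IRE1 splices XBP1 RNA, ATF6 is cut to release a transcription factor, and PERK phosphorylates the translation factor eIF2alpha, which PPP1R15A and PPP1R15B help to dephosphorylate. Proteins that fail to fold are pulled back to the cytosol and degraded by ER-associated degradation, and folded ones leave in COPII vesicles. FPKM per gene, the unit of the files, does not measure XBP1 splicing or the activity of any sensor, and in bulk samples fewer cells with an RNA and less of that RNA per cell cannot be told apart.

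Many promoters of this system carry letters known as ER stress response elements. Windows from 250 bases before to 50 bases after the annotated start, from RefSeq on GRCh38.p14, were found for 32 of the 36 members, 2 of them through an older symbol. The motif ERSE, searched on both strands as CCAAT and CCACG with 9 bases between them, was in 8 of these 32 members (25.0%) and in 25 of 27167 genes with a window (0.092%). The motif ERSE-II, ATTGG and CCACG with 1 base between them, was in 3 members (HERPUD1, HYOU1 and SDF2L1) and in 0.0699% of genes. Both motifs were searched as elements already known in promoters of this system, so their higher share among members is not a test. The UPRE core TGACGTGG was in DNAJC10 and HYOU1 and in 0.928% of genes, and in HYOU1 it overlaps an ERSE-II match. The CARE letters TGATGCAA were in HERPUD1 and PPP1R15B and in 1.09% of genes. The stretches below are the bases before the start that lie in no annotated untranslated region. They are shown because the 6 genes share these motifs while their RNA did not change alike, and capitals mark the ERSE in the first 4 and the ERSE-II in the last 2. In these results HSPA5, XBP1, HERPUD1 and HYOU1 rose with SET siRNA in WT-labelled cells, CRELD2 did not pass the test, and CANX fell. The stretches lie at chr9:125241344-125241593, minus strand (HSPA5), chr22:28800598-28800819, minus strand (XBP1), chr22:49918459-49918633, plus strand (CRELD2), chr5:179698679-179698905, plus strand (CANX), chr16:56931892-56932047, plus strand (HERPUD1) and chr11:119057206-119057455, minus strand (HYOU1).
HSPA5: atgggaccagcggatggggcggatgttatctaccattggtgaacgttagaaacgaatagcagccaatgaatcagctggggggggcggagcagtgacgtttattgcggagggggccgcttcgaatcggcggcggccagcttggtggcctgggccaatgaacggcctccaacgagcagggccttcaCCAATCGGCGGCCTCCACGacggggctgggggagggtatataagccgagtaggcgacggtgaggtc
XBP1: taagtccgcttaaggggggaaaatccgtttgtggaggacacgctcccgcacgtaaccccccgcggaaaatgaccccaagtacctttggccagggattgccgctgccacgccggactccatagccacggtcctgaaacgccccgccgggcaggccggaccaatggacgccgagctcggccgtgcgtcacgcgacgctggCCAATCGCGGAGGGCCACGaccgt
CRELD2: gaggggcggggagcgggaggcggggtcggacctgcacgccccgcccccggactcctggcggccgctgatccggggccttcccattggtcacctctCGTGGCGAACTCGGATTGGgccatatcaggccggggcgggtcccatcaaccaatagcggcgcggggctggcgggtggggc
CANX: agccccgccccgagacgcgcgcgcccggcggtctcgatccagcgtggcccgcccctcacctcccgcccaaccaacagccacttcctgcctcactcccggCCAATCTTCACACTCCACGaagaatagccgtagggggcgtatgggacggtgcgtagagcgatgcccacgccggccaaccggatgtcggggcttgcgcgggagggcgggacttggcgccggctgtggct
HERPUD1: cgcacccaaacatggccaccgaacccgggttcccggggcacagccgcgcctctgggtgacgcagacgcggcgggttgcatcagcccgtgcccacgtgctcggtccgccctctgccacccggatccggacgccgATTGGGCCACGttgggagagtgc
HYOU1: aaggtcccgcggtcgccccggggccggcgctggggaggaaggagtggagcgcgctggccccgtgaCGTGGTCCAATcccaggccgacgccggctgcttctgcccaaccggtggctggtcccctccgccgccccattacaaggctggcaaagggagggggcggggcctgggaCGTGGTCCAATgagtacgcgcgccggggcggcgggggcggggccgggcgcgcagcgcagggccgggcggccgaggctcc

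Before the comparisons, the libraries were examined. SET itself stood at 123.9 ± 2.64 FPKM (SD, n = 3) in WT-labelled control cells, 12.5 ± 0.656 (n = 3) with its siRNA, 163.9 ± 8.22 (n = 2) in KO-labelled control cells and 14.9 ± 0.0302 (n = 2) with the siRNA. CDKN1A, a p53 target, was at 162.0 ± 8.42 FPKM (n = 3) in WT-labelled and 6.67 ± 0.231 (n = 2) in KO-labelled control cells. Total read counts were not used here. The FPKM intervals in the files give relative depths of 1.0 to 1.523 across libraries, and a median interval half-width of 3.82 to 5.11% of the member's FPKM. Of 9 mesenchymal and osteoblast markers 6 reached an FPKM of 1 (VIM, COL1A1, SPARC, RUNX2, CDH2 and ALPL), while COL1A2, SP7 and BGLAP did not. Their summed level was 1901 to 1946 FPKM in WT-labelled control libraries and 1201 to 1318 with SET siRNA, and 1983 to 2098 and 1483 to 1618 in KO-labelled libraries. Of 4 epithelial markers 2 reached an FPKM of 1, with sums of 2.81 to 2.93 and 4.85 to 6.70 FPKM in WT-labelled and 2.30 to 2.61 and 5.15 to 5.42 in KO-labelled libraries, and none of 4 blood and 4 endothelial markers did, HBB being listed at 0 throughout. The part of these marker shifts in the results was not tested.

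One library stood apart for these genes. WT-labelled SET siRNA library 3 was the lowest of its group for 33 of the 35 members tested, against 37.0% of all tested genes. Its median log2 difference from the rest of its group was -0.247 for the members and -0.003 for all genes. That left WT-labelled SET siRNA libraries 1 and 2 as the lowest for 2 and 0 members. Their median log2 differences from the rest of the group were 0.113 and 0.142 for the members, beside 0.006 and 0.001 for all genes. A low library 3 cannot be told apart from high libraries 1 and 2. Library 2 of that group was the highest for 20 members, against 33.2% of all genes. In the control groups, KO-labelled library 1 was the lower of 2 for 22 members, against 50.5% of all genes, and WT-labelled library 1 the lowest of 3 for 19, against 38.1%. Library 3 was singled out after its values were seen, and the counts below are given with and without it. The fit without it is therefore not a corrected one and does not replace the fit with all libraries.

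**Figure D1:**
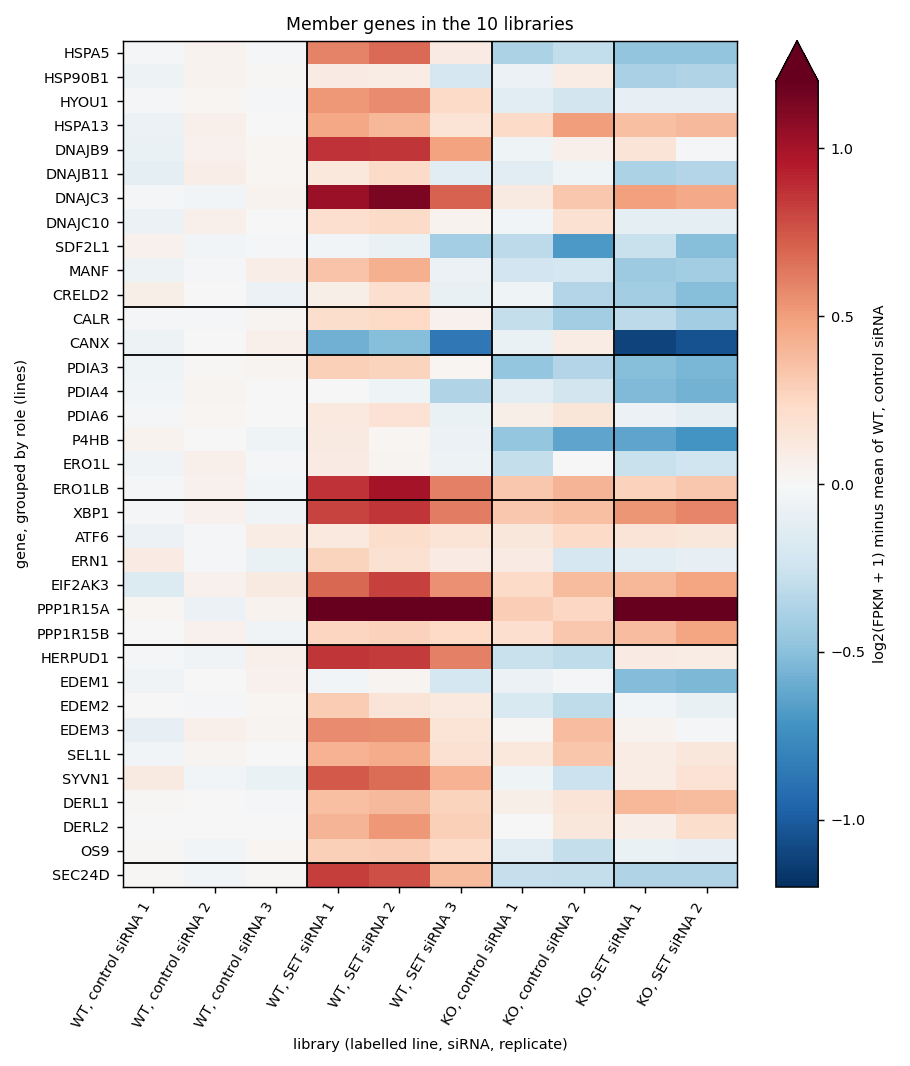
Level of the 35 tested members in each of the 10 libraries, as log2(FPKM + 1) minus the mean of the 3 WT-labelled control libraries (colour; the scale stops at 1.2 and PPP1R15A lies above it). Rows are genes separated by role and columns are libraries separated by group; WT-labelled SET siRNA library 3 has the lowest value of its group in 33 of the 35 rows, and the KO-labelled SET siRNA columns are blue in many rows.

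The members spanned a wide range of levels, and FPKM, being per length, allows them to be ranked. CALR, the lumenal lectin calreticulin, had the highest mean over the 10 libraries at 499 FPKM (range 393 to 619). P4HB, the founding protein disulfide isomerase, followed at 374, with a range of 263 to 466 that overlaps that of CALR. PDIA6, a further isomerase, was at 325 FPKM and the ER Hsp90 HSP90B1 at 248, and HSPA5 at 206. At the other end stood the oxidase ERO1LB at 2.60 FPKM (1.63 to 4.36) and the sensor ERN1 at 2.13 (1.68 to 2.69), whose ranges overlap. DERL3, a derlin of the retrotranslocation machinery, was between 0 and 0.197 FPKM, was listed at 0 in WT-labelled control library 3, and did not reach the FPKM of 1 in 2 libraries that was needed for testing. The other 35 members passed that filter.

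In WT-labelled cells SET siRNA was followed by higher RNA for most of the set. On the log2(FPKM + 1) scale used for all tests, 22 of 35 members rose and 1 fell at an adjusted p below 0.05, where 54.8% of all 14813 tested genes were called, 30.8% higher and 24% lower. The median log2 change of the members was 0.255, beside 0.038 for all tested genes. Of the ER-associated degradation genes 8 of 9 tested members rose, of the sensor and feedback genes 5 of 6, and SEC24D, the single export gene, rose as well. Among lumenal chaperones 5 of 11 rose, and among isomerases and oxidases 2 of 6. Without WT-labelled SET siRNA library 3, 25 members rose and 1 fell, with a median of 0.293 and 27.9% of all genes higher and 21.7% lower. Without library 1 or library 2 of that group, 18 members rose and 1 fell. Of all 14813 genes, 3969 were then higher and 3167 lower without library 1, and 3905 and 3084 without library 2. Of the 23 calls made with all libraries 18 were kept under all 20 alternative settings. CALR, PDIA3, EDEM2 and EDEM3 lost theirs when WT-labelled SET siRNA library 1 was left out, and ATF6, CALR, PDIA3 and EDEM3 when library 2 was. ATF6 also lost its call without WT-labelled SET siRNA library 3, and at least 1 of these 5 genes did so without each of the 3 control libraries. The scaling of the libraries mattered too. With median-of-ratios scaling 18 members rose and 1 fell, beside 3864 and 4191 of all genes. With quantile normalization 21 rose and 1 fell, beside 4113 and 3934.

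In KO-labelled cells the same siRNA was followed by few calls in the set. There, 3 of 35 members rose (PPP1R15A, HERPUD1 and DERL1) and 4 fell (CANX, EDEM1, HSP90B1 and PDIA4), where 37.6% of all tested genes were called, 19.8% higher and 17.9% lower. The median log2 change of the members was -0.063, beside 0.022 for all genes. A further 19 members, named by role below, rose in WT-labelled cells and were not called in KO-labelled cells, which alone does not show that the responses differed. The 7 calls became 13 (6 higher, 7 lower) without WT-labelled SET siRNA library 3, with XBP1, DNAJC3 and SYVN1 among the higher. That library is in no KO-labelled group, so the KO-labelled estimates stayed the same and only the spread shared by all groups changed. The SE in KO-labelled cells went from 0.1532 to 0.0534 for HSPA5 and from 0.0766 to 0.0514 for XBP1, and from 0.0615 to 0.0657 for ATF6. Calls in KO-labelled cells thus depend on the spread of WT-labelled libraries too. HSP90B1 lost its call without KO-labelled control library 2 or either KO-labelled SET siRNA library, and PDIA4 without KO-labelled control library 1 or either SET siRNA library.

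**Figure D2:**
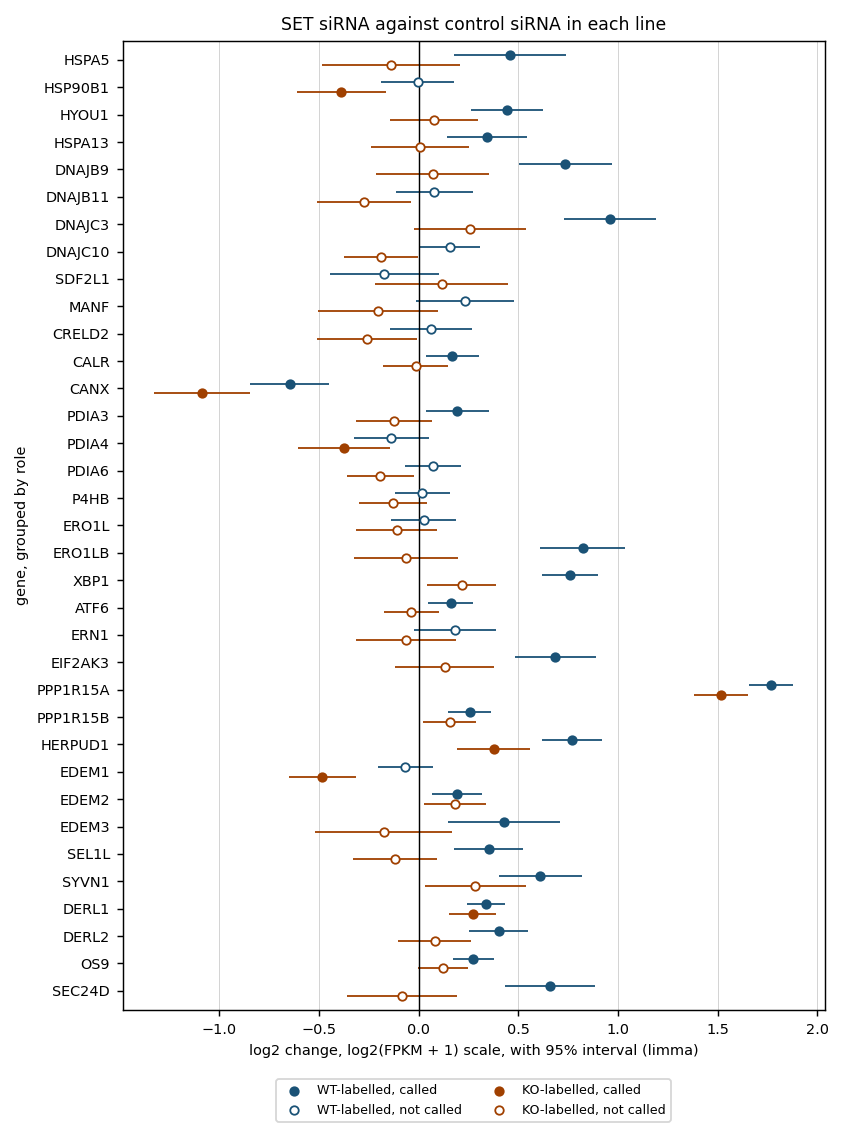
Log2 change of each member with SET siRNA against control siRNA in WT-labelled cells (blue, 3 against 3 libraries) and KO-labelled cells (brown, 2 against 2), with limma 95% intervals; filled points are called at an adjusted p below 0.05. Most blue points lie right of zero, from -0.65 for CANX to 1.77 for PPP1R15A, and most brown points lie near zero or left of it.

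The difference between the responses was tested as an interaction, the log2 change in WT-labelled minus that in KO-labelled cells. It was higher for 9 of 35 members and lower for 0, where 19.1% of all tested genes were called, 10.5% higher and 8.6% lower, and 34 of 35 members had a positive estimate. The single negative estimate, SDF2L1 at -0.29 (95% interval -0.72 to 0.14, adjusted p = 0.305), was not past an unadjusted p of 0.05 either, and no lower call appeared under any of the 19 alternative settings. The 9 genes were ERO1LB, SEC24D, DNAJC3, DNAJB9, EIF2AK3, XBP1, SEL1L, EDEM1 and HERPUD1. The median over the members was 0.336, beside 0.026 for all genes. Without WT-labelled SET siRNA library 3 the interaction was called for 23 members, all higher, with 9.8% of all genes higher and 7.72% lower. The count also moved to 16 without KO-labelled control library 1, to 5 without WT-labelled SET siRNA library 1 or 2, to 4 without KO-labelled control library 2, and to 3 without KO-labelled SET siRNA library 1 or 2. ERO1LB and XBP1 kept their calls throughout. SEC24D lost its call only without KO-labelled SET siRNA library 1, and HERPUD1 without 8 of the 10 libraries taken in turn, the exceptions being the WT-labelled libraries numbered 3. DNAJC3 and EDEM1 lost theirs without KO-labelled control library 2 or either KO-labelled SET siRNA library, and DNAJB9, EIF2AK3 and SEL1L without any 1 of WT-labelled SET siRNA libraries 1 and 2, KO-labelled control library 2 and KO-labelled SET siRNA library 2. EIF2AK3 and SEL1L also lost theirs without KO-labelled SET siRNA library 1, and DNAJB9 and SEL1L without WT-labelled control library 1.

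**Figure D3:**
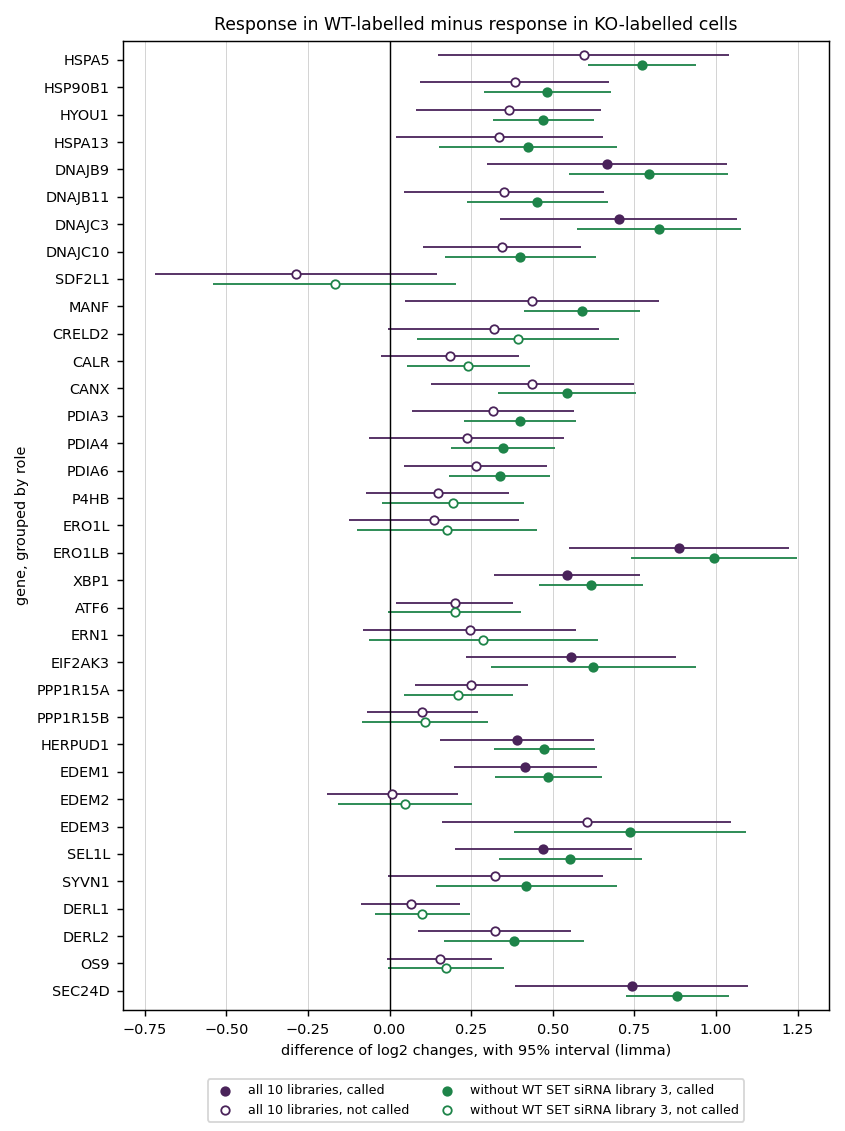
Interaction for each member, the log2 change in WT-labelled minus that in KO-labelled cells, from all 10 libraries (purple) and without WT-labelled SET siRNA library 3 (green), with limma 95% intervals and filled points where called. SDF2L1 is the only member left of zero; 9 purple and 23 green points are filled.

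Among the sensors and their feedback genes, PPP1R15A had the largest change of the set. It encodes GADD34, the inducible subunit that brings protein phosphatase 1 to eIF2alpha. In WT-labelled cells it was at 24.3, 22.7 and 24.6 FPKM with control siRNA and 79.99, 82.3 and 88.3 with SET siRNA. KO-labelled libraries stood at 29.5 and 28.6 FPKM with control siRNA and 84.04 and 85.5 with SET siRNA. No SET siRNA library of either line overlapped its controls, and the ratios of the mean FPKM were 3.503 and 2.92. The log2 changes were 1.77 (SE 0.049, adjusted p = 6.88e-08) and 1.52 (SE 0.060, adjusted p = 1.91e-06), and their difference of 0.25 had an adjusted p of 0.0501, just outside the threshold. PPP1R15B, the constitutive counterpart, was at 29.7, 30.9 and 28.9 FPKM with control siRNA and 35.8, 36.3 and 35.4 with SET siRNA in WT-labelled cells, where it rose by 0.26 (SE 0.048, adjusted p = 0.00162). Its KO-labelled values were 34.6 and 37.7 FPKM with control siRNA and 38.9 and 41.8 with SET siRNA, a difference of 0.16 (SE 0.058, adjusted p = 0.0628); the groups did not overlap in either line.

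XBP1 encodes the transcription factor that IRE1 activates by splicing. Its WT-labelled values were 59.1, 61.8 and 57.7 FPKM with control siRNA and 105, 109 and 91.4 with SET siRNA. Its KO-labelled values were 74.6 and 76.7 FPKM with control siRNA and 86.3 and 89.8 with SET siRNA. All SET siRNA libraries lay above their own controls, with a wider gap in the WT-labelled line. The log2 change was 0.76 (SE 0.062, adjusted p = 1.3e-05) in WT-labelled and 0.22 (SE 0.077, adjusted p = 0.051) in KO-labelled cells, and the interaction was 0.54 (SE 0.099, adjusted p = 0.00754). EIF2AK3, the sensor kinase PERK, was at 6.62, 7.84 and 8.15 FPKM with control siRNA and 12.7, 14.02 and 11.4 with SET siRNA in WT-labelled cells. Levels in the KO-labelled line were 8.999 and 10.1 FPKM with control siRNA and 10.2 and 10.8 with SET siRNA, and in both lines the groups did not overlap. It rose by 0.68 (SE 0.090, adjusted p = 0.000208) in WT-labelled cells, the KO-labelled difference was 0.13 (95% interval -0.12 to 0.38, adjusted p = 0.384), and the interaction was 0.55 (SE 0.143, adjusted p = 0.0273).

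The other 2 sensors moved less. ATF6, the membrane-held transcription factor, was at 36.6, 37.8 and 40.9 FPKM with control siRNA and 41.7, 44.5 and 43.1 with SET siRNA in WT-labelled cells, a rise of 0.16 (SE 0.050, adjusted p = 0.022) with groups that did not overlap. The KO-labelled libraries gave 42.4 and 45.1 FPKM with control siRNA and 42.9 and 42.2 with SET siRNA, overlapping values with a difference of -0.038 (95% interval -0.18 to 0.10, adjusted p = 0.659). ERN1, the splicing sensor IRE1, was at 2.29, 2.03 and 1.91 FPKM with control siRNA and 2.69, 2.49 and 2.29 with SET siRNA in WT-labelled cells. The highest control and the lowest SET siRNA library were nearly equal, and the difference of 0.18 (95% interval -0.024 to 0.39, adjusted p = 0.118) did not pass the test. Its KO-labelled values of 2.29 and 1.68 FPKM with control siRNA and 1.81 and 1.87 with SET siRNA overlapped, with a difference of -0.063 (95% interval -0.32 to 0.19, adjusted p = 0.684).

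**Figure D4:**
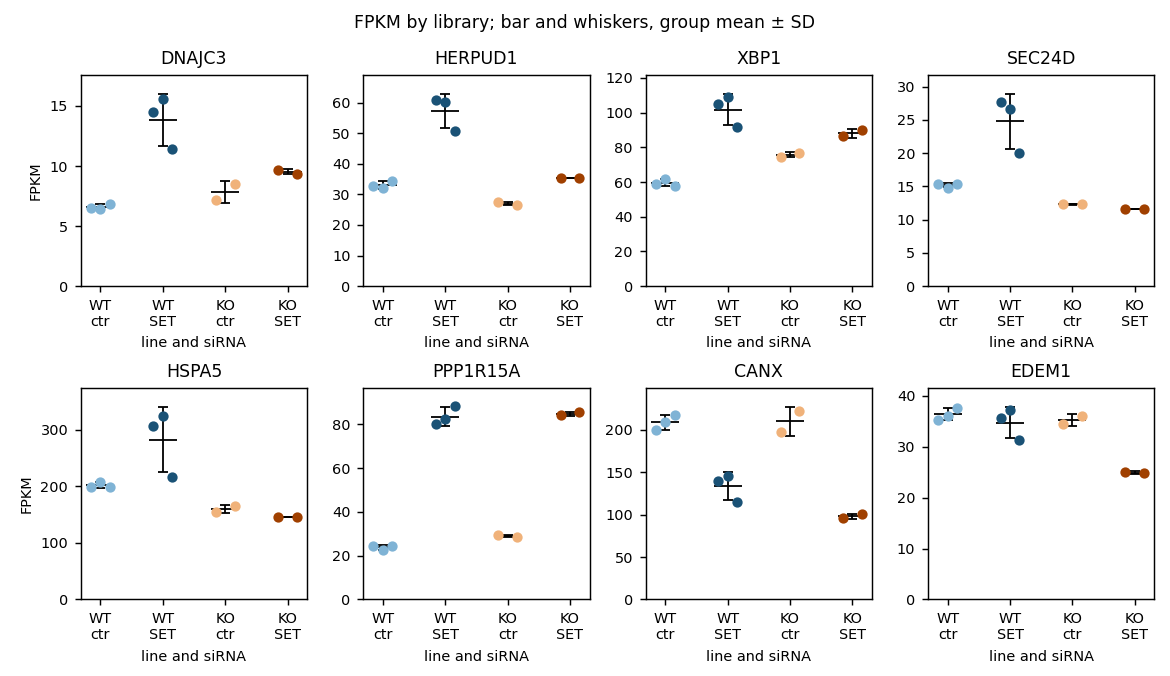
FPKM of 8 members in every library (points), with group mean (bar) and SD (whiskers), by line (WT, KO) and siRNA (ctr, control siRNA; SET, SET siRNA). DNAJC3, HERPUD1, XBP1, SEC24D and HSPA5 are highest in the WT-labelled SET siRNA group, PPP1R15A is high with SET siRNA in both lines, CANX is low with SET siRNA in both, and EDEM1 is lowest in the KO-labelled SET siRNA group.

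Among the lumenal chaperones, HSPA5, HYOU1 and HSPA13 rose in WT-labelled cells and were not called in KO-labelled cells. HSPA5, the ER Hsp70 also called BiP, was at 199, 209 and 199 FPKM with control siRNA and 306, 325 and 217 with SET siRNA in WT-labelled cells. Libraries 1 and 2 with SET siRNA stood well above library 3, which was just above the controls. In KO-labelled cells HSPA5 was at 155 and 164 FPKM with control siRNA and 145 and 145 with SET siRNA, with the SET siRNA values below the controls. The log2 change was 0.46 (SE 0.125, adjusted p = 0.0121) in WT-labelled cells and 0.64 without library 3. In KO-labelled cells it was -0.14 (95% interval -0.48 to 0.21, adjusted p = 0.513), and the interaction of 0.59 (SE 0.198, adjusted p = 0.0638) was not called with all libraries, while without library 3 it was 0.77 and called. HYOU1, the Hsp110-type exchange factor of HSPA5, was at 57.99, 59.4 and 58.1 FPKM with control siRNA and 84.5, 87.4 and 68.7 with SET siRNA in WT-labelled cells. It was at 53.6 and 49.9 FPKM with control siRNA and 54.5 and 54.7 with SET siRNA in KO-labelled cells, where the values were close together without overlapping. It rose by 0.44 (SE 0.080, adjusted p = 0.0013) in WT-labelled cells, and the KO-labelled difference was 0.077 (95% interval -0.14 to 0.30, adjusted p = 0.565). HSPA13, a further ER Hsp70, was at 41.7, 45.9 and 44.03 FPKM with control siRNA and 61.05, 57.98 and 49.4 with SET siRNA in WT-labelled cells, a rise of 0.34 (SE 0.089, adjusted p = 0.00916). Its KO-labelled values of 51.6 and 62.6 FPKM with control siRNA and 56.7 and 57.6 with SET siRNA overlapped, with a difference of 0.007 (95% interval -0.24 to 0.25, adjusted p = 0.965).

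Of the J-domain cochaperones, which pair with HSPA5, 2 of 4 rose in WT-labelled cells, where 30.8% of all tested genes did. DNAJC3, also called p58IPK, was at 6.52, 6.41 and 6.83 FPKM with control siRNA and 14.5, 15.6 and 11.4 with SET siRNA there. The KO-labelled values were 7.17 and 8.47 FPKM with control siRNA and 9.66 and 9.36 with SET siRNA. The SET siRNA libraries lay above their controls in both lines, by 2.103 and 1.22 times in mean FPKM. The log2 change was 0.96 (SE 0.102, adjusted p = 6.01e-05) in WT-labelled and 0.26 (SE 0.125, adjusted p = 0.135) in KO-labelled cells, and the interaction was 0.70 (SE 0.162, adjusted p = 0.0183). In the fit without WT-labelled SET siRNA library 3, the KO-labelled rise of DNAJC3 was called as well (adjusted p = 0.0384). DNAJB9, also called ERdj4, was at 8.52, 9.41 and 9.201 FPKM with control siRNA and 17.3, 17.2 and 13.01 with SET siRNA in WT-labelled cells. KO-labelled libraries stood at 8.67 and 9.44 FPKM with control siRNA and 10.2 and 8.93 with SET siRNA, and these values overlapped. It rose by 0.74 (SE 0.103, adjusted p = 0.000302) in WT-labelled cells, the KO-labelled difference was 0.069 (95% interval -0.22 to 0.35, adjusted p = 0.694), and the interaction was 0.67 (SE 0.163, adjusted p = 0.0227). The remaining cochaperones, DNAJB11 (ERdj3) and the reductase DNAJC10 (ERdj5), were not called in either line. Their differences were 0.077 and 0.16 in WT-labelled and -0.27 and -0.19 in KO-labelled cells.

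HSP90B1, the ER Hsp90 also called GRP94, fell with SET siRNA in KO-labelled cells and was not called in WT-labelled cells. In WT-labelled cells it was at 248.8, 267 and 262 FPKM with control siRNA and 278, 276 and 225 with SET siRNA, overlapping values with a difference of -0.005 (95% interval -0.19 to 0.18, adjusted p = 0.963). Levels in the KO-labelled line were 247 and 276 FPKM with control siRNA and 197 and 201 with SET siRNA, and it fell by 0.39 (SE 0.099, adjusted p = 0.0137). SDF2L1, which pairs with DNAJB11, and the secreted stress proteins MANF and CRELD2 were not called in either line. MANF differed by 0.23 (95% interval -0.013 to 0.48, adjusted p = 0.0981) in WT-labelled cells, where libraries 1 and 2 with SET siRNA were at 136 and 144 FPKM and library 3 at 102, below the controls at 103, 106 and 113. Without library 3 MANF was called, at 0.39. CRELD2 differed by 0.062 and SDF2L1 by -0.17 in WT-labelled cells, and by -0.26 and 0.12 in KO-labelled cells.

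The 2 lectin chaperones moved in opposite directions in WT-labelled cells, and only CANX was called in KO-labelled cells. CANX encodes calnexin, the membrane-bound lectin, and was at 199.9, 209 and 217 FPKM with control siRNA and 139.98, 146 and 115 with SET siRNA in WT-labelled cells. It was at 198 and 222 FPKM with control siRNA and 96.3 and 100.4 with SET siRNA in KO-labelled cells. All SET siRNA libraries lay far below all controls in both lines. CANX fell by 0.65 (SE 0.087, adjusted p = 0.000234) in WT-labelled and fell by 1.09 (SE 0.107, adjusted p = 9.76e-05) in KO-labelled cells, ratios of 0.6396 and 0.468 in mean FPKM. The interaction of 0.44 (SE 0.138, adjusted p = 0.054) was not called with all libraries and was called without WT-labelled SET siRNA library 3, at 0.54. CALR, its soluble homolog calreticulin, was at 516, 521 and 537 FPKM with control siRNA and 608, 619 and 546 with SET siRNA in WT-labelled cells, groups that did not overlap and a rise of 0.17 (SE 0.059, adjusted p = 0.0358). The KO-labelled libraries gave 430.3 and 394 FPKM with control siRNA and 422 and 393 with SET siRNA, overlapping values with a difference of -0.016 (95% interval -0.18 to 0.15, adjusted p = 0.882). The rise of CALR in WT-labelled cells was lost under both other scalings of the libraries and without a filter on low values.

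Among the disulfide enzymes, ERO1LB had the largest change. ERO1LB (ERO1B) is an oxidase that regenerates protein disulfide isomerase, and it was at 1.66, 1.79 and 1.63 FPKM with control siRNA and 3.902, 4.36 and 3.099 with SET siRNA in WT-labelled cells. The KO-labelled values were 2.36 and 2.57 FPKM with control siRNA and 2.26 and 2.36 with SET siRNA. WT-labelled SET siRNA libraries stood above every other library, and the KO-labelled groups overlapped. The log2 change was 0.82 (SE 0.095, adjusted p = 9.39e-05) in WT-labelled and -0.064 (95% interval -0.33 to 0.20, adjusted p = 0.695) in KO-labelled cells, and the interaction of 0.89 (SE 0.15, adjusted p = 0.00555) was the largest in the set. Its near relative ERO1L (ERO1A) was not called in any of these 3 tests, with differences of 0.025 and -0.11. Since FPKM of ERO1LB was low, the added 1 makes its log2 change smaller than that of its FPKM, whose ratio was 2.24.

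Of the isomerases, PDIA3 was called in WT-labelled cells and PDIA4 in KO-labelled cells. PDIA3, the partner of the lectins also called ERp57, was at 74.9, 78.1 and 79.4 FPKM with control siRNA and 94.7, 93.5 and 78.9 with SET siRNA in WT-labelled cells. Libraries 1 and 2 with SET siRNA were above the controls and library 3 was among them. It rose by 0.19 (SE 0.069, adjusted p = 0.0387), a call lost under 11 of the 20 alternatives, and its KO-labelled values were 55.8 and 60.6 FPKM with control siRNA and 54.1 and 52.5 with SET siRNA, a difference of -0.12 (95% interval -0.31 to 0.068, adjusted p = 0.284). PDIA4 (ERp72) was at 54.7, 57.3 and 56.3 FPKM with control siRNA and 56.1, 54.02 and 43.4 with SET siRNA in WT-labelled cells, a difference of -0.14 (95% interval -0.33 to 0.051, adjusted p = 0.189). In KO-labelled cells PDIA4 was at 51.1 and 48.1 FPKM with control siRNA and 38.4 and 37.6 with SET siRNA, and it fell by 0.37 (SE 0.102, adjusted p = 0.0186). P4HB and PDIA6 were not called in either line, with differences of 0.018 and 0.071 in WT-labelled and -0.13 and -0.19 in KO-labelled cells.

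ER-associated degradation was the role with most rises in WT-labelled cells. HERPUD1, a membrane scaffold of the ubiquitin ligase complex, was at 32.8, 32.1 and 34.5 FPKM with control siRNA and 60.8, 60.2 and 50.8 with SET siRNA there. It was at 27.4 and 26.6 FPKM with control siRNA and 35.4 and 35.3 with SET siRNA in KO-labelled cells. The groups did not overlap in either line, and the KO-labelled SET siRNA values were close to those of WT-labelled controls. The log2 change was 0.77 (SE 0.066, adjusted p = 1.71e-05) in WT-labelled and 0.38 (SE 0.081, adjusted p = 0.00628) in KO-labelled cells, and the interaction was 0.39 (SE 0.105, adjusted p = 0.0315). SYVN1, the ubiquitin ligase HRD1, was at 17.9, 16.2 and 15.6 FPKM with control siRNA and 28.3, 26.9 and 22.5 with SET siRNA in WT-labelled cells. KO-labelled libraries stood at 15.97 and 13.6 FPKM with control siRNA and 17.6 and 18.8 with SET siRNA, also without overlap. It rose by 0.61 (SE 0.092, adjusted p = 0.000476) in WT-labelled cells, and the KO-labelled difference was 0.28 (95% interval 0.030 to 0.54, adjusted p = 0.0753). SEL1L, the adaptor of that ligase, was at 22.2, 23.3 and 22.8 FPKM with control siRNA and 30.9, 31.4 and 26.1 with SET siRNA in WT-labelled cells, a rise of 0.35 (SE 0.076, adjusted p = 0.00382). Its KO-labelled values of 25.01 and 29.04 FPKM with control siRNA and 24.3 and 25.1 with SET siRNA overlapped, with a difference of -0.12 (95% interval -0.33 to 0.090, adjusted p = 0.339), and the interaction was 0.47 (SE 0.121, adjusted p = 0.0269). OS9, a lectin that hands glycoproteins to SEL1L, was at 77.3, 74.8 and 77.9 FPKM with control siRNA and 93.9, 94.4 and 90.3 with SET siRNA in WT-labelled cells, a rise of 0.27 (SE 0.045, adjusted p = 0.000805). It was at 69.9 and 62.8 FPKM with control siRNA and 72.5 and 71.7 with SET siRNA in KO-labelled cells, a difference of 0.12 (95% interval -0.005 to 0.25, adjusted p = 0.118).

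The derlins, channel proteins of the same complex, both rose in WT-labelled cells. DERL1 was at 61.3, 60.7 and 60.05 FPKM with control siRNA and 77.96, 79.6 and 73.1 with SET siRNA in WT-labelled and 63.8 and 67.8 FPKM with control siRNA and 80.2 and 79.1 with SET siRNA in KO-labelled cells. Within each line the siRNA groups did not overlap, and it rose in both, by 0.34 (SE 0.043, adjusted p = 0.000163) and 0.27 (SE 0.052, adjusted p = 0.00351). Its interaction was 0.065 (95% interval -0.087 to 0.22, adjusted p = 0.515). DERL2 was at 28.6, 28.3 and 28.4 FPKM with control siRNA and 38.01, 41.2 and 34.8 with SET siRNA in WT-labelled cells, a rise of 0.40 (SE 0.066, adjusted p = 0.000766). Its KO-labelled values of 28.3 and 31.3 FPKM with control siRNA and 30.1 and 33.1 with SET siRNA overlapped, with a difference of 0.080 (95% interval -0.10 to 0.26, adjusted p = 0.466).

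The 3 EDEM genes, whose proteins trim mannose to mark glycoproteins for disposal, did not move together. EDEM1 was at 35.3, 36.1 and 37.6 FPKM with control siRNA and 35.6, 37.3 and 31.4 with SET siRNA in WT-labelled cells, overlapping values with a difference of -0.067 (95% interval -0.20 to 0.071, adjusted p = 0.377). Levels in the KO-labelled line were 34.5 and 36.1 FPKM with control siRNA and 25.1 and 24.8 with SET siRNA. The KO-labelled SET siRNA libraries were the 2 lowest of all 10, and EDEM1 fell by 0.48 (SE 0.075, adjusted p = 0.00116) there, with an interaction of 0.42 (SE 0.097, adjusted p = 0.019). EDEM2 was at 26.5, 26.1 and 26.97 FPKM with control siRNA and 32.98, 29.7 and 28.8 with SET siRNA in WT-labelled cells, a rise of 0.19 (SE 0.057, adjusted p = 0.0172). It was at 23.3 and 21.3 FPKM with control siRNA and 25.95 and 24.97 with SET siRNA in KO-labelled cells, a difference of 0.18 (95% interval 0.028 to 0.34, adjusted p = 0.0638), and the interaction estimate was 0.008 (95% interval -0.19 to 0.21, adjusted p = 0.957). EDEM3 was at 4.85, 5.53 and 5.37 FPKM with control siRNA and 8.25, 8.16 and 5.99 with SET siRNA in WT-labelled cells. SET siRNA library 3 was the lowest of its group, still above the controls, and EDEM3 rose by 0.43 (SE 0.124, adjusted p = 0.0161). Its KO-labelled values of 5.29 and 7.08 FPKM with control siRNA and 5.44 and 5.17 with SET siRNA overlapped, with a difference of -0.18 (95% interval -0.52 to 0.17, adjusted p = 0.391).

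SEC24D, a cargo-selecting subunit of the COPII coat, was the single export gene of the set. It was at 15.4, 14.8 and 15.3 FPKM with control siRNA and 27.7, 26.7 and 20.05 with SET siRNA in WT-labelled cells. The KO-labelled libraries gave 12.4 and 12.3 FPKM with control siRNA and 11.6 and 11.6 with SET siRNA. The WT-labelled SET siRNA libraries stood above all others, whereas the KO-labelled SET siRNA values were slightly below their controls. It rose by 0.66 (SE 0.10, adjusted p = 0.000482) in WT-labelled cells, the KO-labelled difference was -0.082 (95% interval -0.36 to 0.19, adjusted p = 0.629), and the interaction was 0.74 (SE 0.158, adjusted p = 0.0139).

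The 2 lines were also compared with each other under each siRNA. With control siRNA the set was mixed, with 8 of 35 members higher and 7 lower in KO-labelled cells, where 47.9% of all tested genes were called, 25.7% higher and 22.2% lower. The median difference was -0.043, beside 0.022 for all genes. The higher calls lay mostly among sensors and feedback genes, 5 of 6, namely XBP1 at 0.34, EIF2AK3 at 0.31, PPP1R15A at 0.27, PPP1R15B at 0.27 and ATF6 at 0.18. HSPA13, ERO1LB and SEL1L were the other higher members, at 0.37, 0.36 and 0.23. The lower calls were P4HB, SDF2L1, PDIA3, CALR, HERPUD1, EDEM2 and OS9. P4HB was at 432 ± 13.6 FPKM (SD, n = 3) in WT-labelled and 296 ± 24.5 (n = 2) in KO-labelled control cells, a difference of -0.55 (SE 0.069, adjusted p = 0.000255). Without KO-labelled control library 2 the 15 calls became 7, and HSPA13, SDF2L1, ERO1LB, ATF6, EIF2AK3, HERPUD1, EDEM2, SEL1L and OS9 lost theirs. ATF6 also lost its call without WT-labelled control library 1 or 2, EIF2AK3 without control library 1, and SEL1L without 8 of the 10 libraries taken in turn.

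With SET siRNA the set was lower in KO-labelled cells. There, 27 of 35 members were lower and 1, PPP1R15B, was higher, where 48.4% of all tested genes were called, 23.6% higher and 24.8% lower. The median difference was -0.41, beside -0.004 for all genes. Of 11 lumenal Hsp70 and Hsp90 chaperones and cochaperones 9 were lower, as were both lectins, 8 of 9 ER-associated degradation members and 5 of 6 isomerases and oxidases. SEC24D differed most, at 24.8 ± 4.15 FPKM (SD, n = 3) in WT-labelled and 11.6 ± 0.0384 (n = 2) in KO-labelled cells, a log2 difference of -1.02 (SE 0.112, adjusted p = 7.64e-05). HSPA5 was at 282 ± 57.7 and 145 ± 0.101 FPKM, a difference of -0.94 (SE 0.14, adjusted p = 0.000516), while under control siRNA its difference of -0.34 had an adjusted p of 0.0715 and was not called. PDIA3 and P4HB, already lower under control siRNA, differed by -0.72 and -0.69, beside -0.41 and -0.55. MANF, DNAJB11 and CRELD2, which were not called in the preceding comparisons with all libraries, were lower here, at -0.66, -0.44 and -0.52. PPP1R15A did not differ beyond the test under SET siRNA, at 0.022 (95% interval -0.10 to 0.14, adjusted p = 0.766). Without WT-labelled SET siRNA library 3, 29 members were lower and PPP1R15B was no longer called, and 21.0% of all genes were higher and 22.6% lower. Without library 1 or library 2 of that group, 21 members were lower and 0 higher. Of all 14813 genes, 3022 were then higher and 3103 lower without library 1, and 3046 and 3212 without library 2. Of the 28 calls made with all libraries 18 were kept under all 20 alternatives. SEL1L, XBP1, ERN1, EDEM3 and DNAJC10 lost theirs without any 1 of WT-labelled SET siRNA libraries 1 and 2 and the KO-labelled SET siRNA libraries. ERO1L lost its call without 3 of those libraries, DERL2 without 2, HSP90B1 and EDEM2 without 1 KO-labelled SET siRNA library, and PPP1R15B without any WT-labelled SET siRNA library or KO-labelled SET siRNA library 2.

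**Figure D5:**
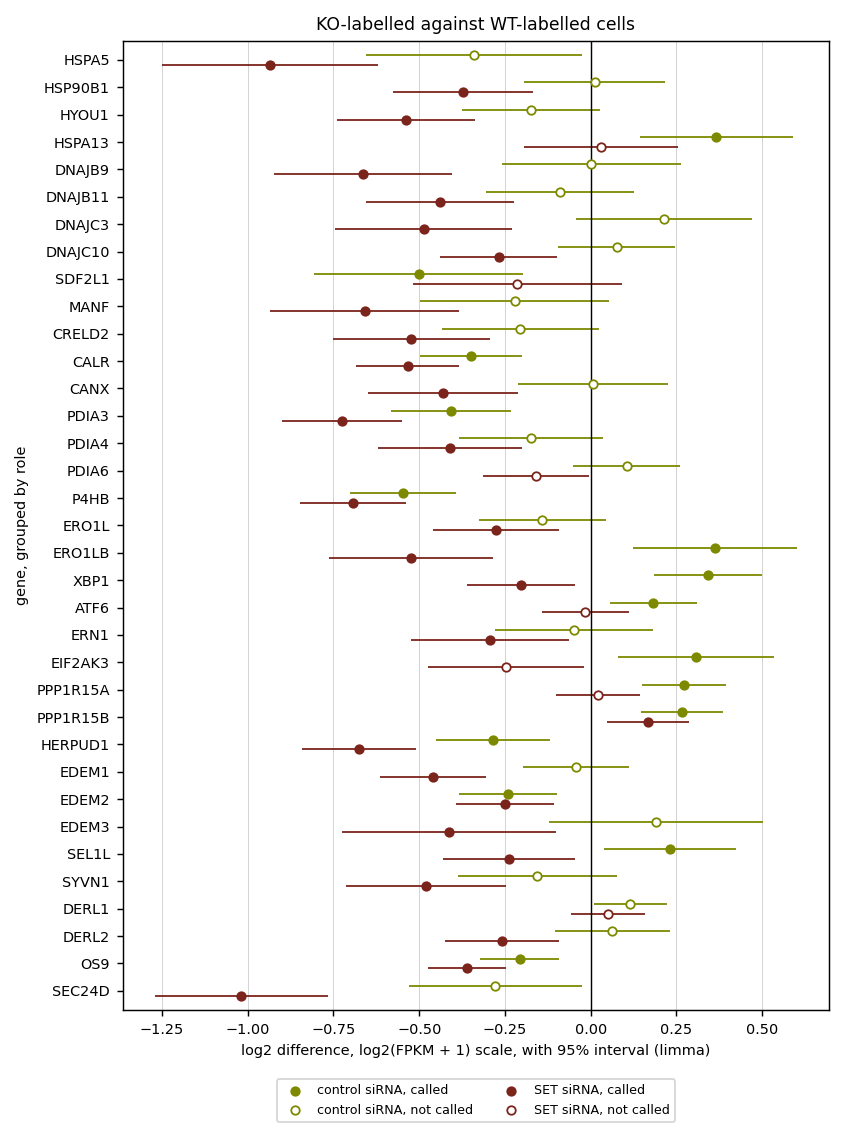
Log2 difference of each member in KO-labelled against WT-labelled cells with control siRNA (olive, 2 against 3 libraries) and with SET siRNA (dark red, 2 against 3), with limma 95% intervals and filled points where called. With control siRNA the points lie on both sides of zero, and with SET siRNA 27 filled points lie left of it and 1, PPP1R15B, right.

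Among the members with an ERSE or ERSE-II in their window, 6 of 11 rose with SET siRNA in WT-labelled cells (CALR, ERO1LB, HERPUD1, HSPA5, HYOU1 and XBP1) and 1 fell (CANX), while CRELD2, HSP90B1, PDIA6 and SDF2L1 were not called. The rising share over the whole set was 62.9%, and over all tested genes 30.8%, with 24% falling. In KO-labelled cells 1 of the 11 rose (HERPUD1) and 2 fell (CANX and HSP90B1), beside 19.8% and 17.9% of all genes. The ERSE of HSPA5, CANX and XBP1 printed above lies on the gene strand and that of CRELD2 on the opposite strand.

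Other genes of the pathway, from lists that hold no member, were counted in the same fit. Their counts stand beside shares over all tested genes of 30.8% higher and 24% lower in WT-labelled cells, 19.8% and 17.9% in KO-labelled cells, and 10.5% and 8.6% for the interaction. Transcription factors, proteases and other regulators of the response held 24 genes, of which 13 rose and 3 fell in WT-labelled and 10 rose and 2 fell in KO-labelled cells. The factor ATF3 was at 9.304 ± 0.727 and 52.003 ± 1.24 FPKM (SD, n = 3) in WT-labelled and 7.41 ± 0.0172 and 21.1 ± 1.43 (n = 2) in KO-labelled cells, without and with SET siRNA. Its log2 changes were 2.37 and 1.40, with an interaction of 0.97 (SE 0.094, adjusted p = 0.000435). DDIT3, the factor CHOP that acts downstream of PERK, rose in both lines, by 1.64 (SE 0.055, adjusted p = 1.36e-07) and 1.26 (SE 0.067, adjusted p = 4.99e-06), as did the stress protein NUPR1, by 1.71 and 1.23. CREB3L1, an ER-held factor linked to bone matrix secretion, fell in both lines, with log2 changes of -0.90 and -0.78. The interaction was higher for 6 of these 24 genes and lower for 2, among them TRAF2, an adaptor of IRE1, at -0.62. ATF3, DDIT3 and NUPR1 also respond to signals outside the ER.

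Of 17 other disulfide isomerase family genes 5 rose and 7 fell in WT-labelled and 1 rose and 6 fell in KO-labelled cells, where the all-gene shares were 30.8% and 24%, and 19.8% and 17.9%. The thioredoxin-like TMX1 was at 40.1 ± 2.43 and 20.6 ± 1.87 FPKM in WT-labelled cells and fell in both lines, with log2 changes of -0.93 and -0.97. The peroxidase GPX8 fell as well, with changes of -0.72 and -0.55. Of 24 other lumenal chaperones and lectin cycle genes 6 rose and 6 fell in WT-labelled cells, and 6 fell in KO-labelled cells. The calcium-binding RCN1 was at 114 ± 3.86 and 61.6 ± 1.85 FPKM in WT-labelled cells and fell in both lines, with log2 changes of -0.88 (SE 0.046, adjusted p = 1.05e-06) and -1.16 (SE 0.056, adjusted p = 3.28e-06). FKBP7 and FKBP14, prolyl isomerases of the ER, fell in both lines as well, with changes of -1.26 and -1.27 for FKBP7 and -0.65 and -1.08 for FKBP14. The highest riser of that list, CDNF, a homolog of MANF, was at 0.744 ± 0.102 and 1.46 ± 0.325 FPKM in WT-labelled cells. The medians of the 2 lists were 0.034 and 0.029 in WT-labelled and -0.072 and -0.063 in KO-labelled cells. The interaction was called for 2 higher (ERP44 at 0.43) and 1 lower (VKORC1 at -0.40) of the first list and for 3 higher of the second (UGGT1, the folding sensor of the lectin cycle, at 0.36).

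Genes for entry, degradation and export were counted beside the same all-gene shares, 30.8% higher and 24% lower in WT-labelled and 19.8% and 17.9% in KO-labelled cells. Of 31 translocon and signal peptidase genes 11 rose and 1 fell in WT-labelled and 3 rose and 5 fell in KO-labelled cells, with medians of 0.067 and -0.049. SEC11C, a catalytic subunit of signal peptidase, was at 45.3 ± 1.42 and 88.5 ± 11.6 FPKM (SD, n = 3) in WT-labelled cells and rose by 0.94 (SE 0.091, adjusted p = 3.29e-05) there and by 0.60 (SE 0.112, adjusted p = 0.00295) in KO-labelled cells. SEC61G, a small channel subunit, fell in both lines, with changes of -0.47 and -0.56. Of 29 other tested genes of ER-associated degradation 13 rose and 4 fell in WT-labelled and 9 rose and 4 fell in KO-labelled cells, with medians of 0.105 and -0.015. UFM1, a ubiquitin-like modifier, rose by 0.68 (SE 0.090, adjusted p = 0.000219) in WT-labelled cells, and the ubiquitin-conjugating enzyme UBE2J1 fell in both lines, with changes of -0.50 (SE 0.069, adjusted p = 0.000263) and -0.80 (SE 0.084, adjusted p = 0.000142). Of 23 other COPII and export genes 11 rose and 3 fell in WT-labelled and 2 rose and 6 fell in KO-labelled cells, with medians of 0.142 and -0.051. MIA3, the large-cargo receptor TANGO1, rose by 0.33 (SE 0.064, adjusted p = 0.00198) in WT-labelled cells. Its interaction was 0.56 (SE 0.101, adjusted p = 0.00744). The interaction was called for 1 higher of the 31 (SEC61A1 at 0.32), 8 higher and 2 lower of the 29 (FAM8A1 at 0.58, AUP1 at -0.31) and 6 higher of the 23.

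Between the lines under SET siRNA, 23.6% of all tested genes were higher and 24.8% lower in KO-labelled cells. In the same lists the counts of higher and lower genes were 8 and 10 of 24 regulators, 2 and 5 of 17 isomerase family genes, 3 and 12 of 24 other chaperones, 1 and 13 of 31 translocon genes, 5 and 10 of 29 degradation genes and 2 and 9 of 23 export genes. With control siRNA, where 25.7% of all genes were higher and 22.2% lower, they were 10 and 8, 2 and 3, 3 and 10, 6 and 6, 10 and 4, and 6 and 4 in the same order. CRELD1, a relative of CRELD2, was at 22.5 ± 1.48 FPKM (SD, n = 3) in WT-labelled and 12.1 ± 1.604 (n = 2) in KO-labelled cells with SET siRNA, a difference of -0.85 (SE 0.095, adjusted p = 8.48e-05). The J-domain protein DNAJC1 was higher in KO-labelled cells under both siRNAs, by 0.90 and 1.01.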

How the data were processed

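The 10 libraries of human U2OS-derived cells were made from Trizol RNA with TruSeq kits, per the labels' protocols. The submitters' processing notes name Cufflinks 2.0.2, TopHat2 2.0.4 and bcl2fastq 1.8.4. Build, annotation and use of strand were not given in the sources used here. The deposited values are FPKM per gene (fragments scaled by gene length and library size), computed by the authors with Cufflinks; per the file headers, each comes with an interval and an estimation status. Each file held 25593 entries, 45 of them repeats of a symbol. Members were matched by symbol, and none was repeated or of failed status. The members and the gene lists were chosen with earlier results of these data known.

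Values were transformed to log2(FPKM + 1), which understates changes of low genes, and the 14813 genes that reached an FPKM of 1 in 2 or more libraries were tested. limma 3.58.1 in R 4.3.3 fitted the 4 groups on all 10 libraries, with a variance trend, and p-values were adjusted by Benjamini-Hochberg over all tested genes at a threshold of 0.05. There were 5 contrasts: the effect of SET siRNA in WT-labelled and in KO-labelled cells, the difference of these effects, and KO-labelled against WT-labelled under each siRNA. The contrasts within a line share no library with each other; the others reuse the same libraries. No count test was used, since of the small fragment numbers implied by the intervals 65.3 to 66.6% were whole within 0.05. Larger implied numbers were not checked. The fit was tested on simulated data for 4 of the contrasts. Alternatives were the pseudocount, the filter, the scaling, the libraries fitted, a replicate block, the variance trend, array weights, the status of the estimate, and each library left out.

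Per-library values are given for HSPA5, XBP1, ATF6, ERN1 and EIF2AK3, and for each member called in an siRNA comparison or the interaction. Of each further list, up to 3 called genes with the largest change in each direction of an siRNA comparison could be named, and in the other contrasts 1, reduced from 2 after values were seen. Motifs and printed promoters were chosen with values known. Promoter windows are RefSeq's on GRCh38.p14, and printed bases were checked against the GENCODE annotation of that assembly. Python 3.11.15 with numpy 2.4.6, pandas 2.3.3 and matplotlib 3.10.9 did the rest. One blood marker of the lists is not reported here.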

Additional observations from a re-analysis of the deposited data

Results flagged for a closer look

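Each result here was singled out because the change with SET siRNA differed between the WT-labelled and the KO-labelled line by a called interaction, given as the log2 change in WT-labelled minus that in KO-labelled cells (limma, adjusted p below 0.05). Of these, 9 are members described above: ERO1LB at 0.89, SEC24D at 0.74, DNAJC3 at 0.70, DNAJB9 at 0.67, EIF2AK3 at 0.55, XBP1 at 0.54, SEL1L at 0.47, EDEM1 at 0.42 and HERPUD1 at 0.39. Regulators of the response gave ATF3 at 0.97 and TRAF2 at -0.62. Folding genes gave ERP44 at 0.43, UGGT1 at 0.36 and VKORC1 at -0.40. Entry, degradation and export gave FAM8A1 at 0.58, MIA3 at 0.56, SEC61A1 at 0.32 and AUP1 at -0.31. The heat shock genes HSPB8 and HSPA1B stood at 0.30 and -0.51, and the p53 target CDKN1A at 0.74. No group held the 4 libraries needed to look for a single outlying value.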

How the results depend on the processing

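No single member or named gene that was called changed sign under any alternative. The balance of higher and lower calls did turn in some counts. With median-of-ratios scaling, the 4564 higher and 3553 lower genes for SET siRNA in WT-labelled cells became 3864 and 4191, the 2926 and 2645 in KO-labelled cells 2623 and 2893, the 1557 and 1274 of the interaction 1337 and 1505, and the 3501 and 3672 between the lines with SET siRNA 3704 and 3439. The 8 higher and 7 lower members between the lines with control siRNA became 5 and 10 when only the libraries compared were fitted and 7 and 12 with the replicate block. The 3 higher and 4 lower members in KO-labelled cells became 7 and 6 with that block. The count of members that rose or fell in WT-labelled cells stayed within 1.5 times of 23 under every alternative, at 19 to 26. In KO-labelled cells the 7 members became 13 with a replicate block, and 5 to 13 when a library was left out. The interaction's 9 members became 16 with the replicate block and 3 to 23 with a library left out. The 15 members that differed between the lines with control siRNA became 9 with array weights and 7 to 21 with a library left out, and the 28 with SET siRNA became 20 to 29. Over all genes, 5571 calls for SET siRNA in KO-labelled cells became 3202 when only those 4 libraries were fitted and 3463 to 5832 with a library left out, and 2831 interaction calls became 1143 to 4589. A library left alone in its group was assumed to vary like the others. The cause of these shifts was not tested.

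Within a line, same-numbered control and SET siRNA libraries did not deviate together. The correlations of their deviations were -0.083, -0.026 and 0.073 in WT-labelled and 0.003 and 0.003 in KO-labelled cells. With 2 libraries in each KO-labelled group, those 2 values are equal by construction. Same-numbered libraries of different lines were not compared, so an effect shared by replicate number across lines was not tested. With the replicate block the all-gene counts were 8472, 6027, 3400, 7189 and 7233, in the order SET siRNA in WT-labelled and in KO-labelled cells, interaction, and line difference with control and with SET siRNA, and the member counts were 23, 13, 16, 19 and 29. With 2 or 3 libraries a group, and a spread shared by all groups, small differences of single members lie near the limit of detection.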

Other observations

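The heat shock genes of the cytosol and nucleus, whose response answers unfolded protein outside the ER, were counted in the same fit. Of 22 such genes 11 rose and 4 fell with SET siRNA in WT-labelled cells, and 12 rose and 1 fell in KO-labelled cells, with median log2 changes of 0.183 and 0.221. Over all tested genes 30.8% rose and 24% fell in WT-labelled and 19.8% and 17.9% in KO-labelled cells, with medians of 0.038 and 0.022. HSPA1A, an inducible Hsp70, was at 113 ± 7.07 FPKM with control siRNA and 155 ± 3.55 with SET siRNA in WT-labelled cells (SD, n = 3). In KO-labelled cells it was at 96.5 ± 10.8 and 188 ± 12.5 (SD, n = 2). Its log2 changes were 0.45 and 0.96, and those of HSPA1B, a nearly identical copy with which it can share reads, were 0.45 and 0.96 as well. The interaction was lower for 5 of the 22 genes, among them HSPA1B at -0.51 (SE 0.107, adjusted p = 0.013), and higher for 2 (8.6% and 10.5% of all genes), among them HSPB8, a small heat shock protein, at 0.30 (SE 0.068, adjusted p = 0.0168). CRYAB, a further small heat shock protein, fell in both lines, with changes of -0.72 and -0.99. Between the lines 6 of these genes were higher and 6 lower in KO-labelled cells with control siRNA (25.7% and 22.2% of all genes), and 8 higher and 1 lower with SET siRNA (23.6% and 24.8%).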
